A study of Mus musculus with 24 samples.

Results

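The nuclear genes for the subunits of the mitochondrial respiratory chain were followed in mouse spleen after total body irradiation. Members were the genes of non-control array probes whose printed names belong to the families Nduf (complex I, assembly factors left out), Sdh (complex II), Uqcr (complex III), Cox5 to Cox8 (complex IV) and Atp5 (complex V). This naming does not cover Cox4i1, Cox4i2 or Ndufab1, which are in a separate list below. The rule found 80 genes with 110 probes, out of 36315 named genes or transcripts with 55681 probes. By complex there were 37 genes of complex I (Ndufa4 and Ndufa4l2 among them, by their names), 4 of complex II, 8 of complex III, 16 of complex IV and 15 of complex V. In all, 78 of the 80 genes passed the filter on dim probes, and each of these 78 was above background on all 24 arrays. The testis isoforms Cox7b2 and Cox8c were above background on 1 array each and were not tested.

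Spleens came from BALB.K mice that were left at rest (0 cGy) or given 300, 400 or 800 cGy of total body irradiation from an X-ray source, and from B10.BR mice that were left at rest or given 300, 500 or 900 cGy. Irradiated mice were sampled 24 hours after the dose. The series calls 800 and 900 cGy myeloablative, and only the 0 and 300 cGy groups have a counterpart in the other strain. Each group had 3 one-colour arrays, and each array measured RNA of whole splenocytes pooled from 3 mice, so that the spread between arrays is that between pools. Both strains carry the k haplotype of the major histocompatibility complex on different backgrounds. No genetic modification or drug is named for any group, and the ages and sex of the animals are not given in the sources used here.

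The respiratory chain of the inner mitochondrial membrane passes electrons from NADH (complex I) and succinate (complex II) through ubiquinone to complex III, cytochrome c and complex IV, which reduces oxygen. Complexes I, III and IV pump protons, and complex V, the ATP synthase, lets them flow back and makes ATP. Most subunits are nuclear genes used by nearly all cells, but complex IV has subunits that exist as a pair of genes with a ubiquitous and a tissue-restricted form. Cox6a2, Cox7a1 and Cox8b are the heart and skeletal muscle forms, and Cox7a1 and Cox8b are also well known from brown fat. Cox6b2, Cox7b2 and Cox8c are testis forms. Ndufa4l2 is a hypoxia-inducible relative of Ndufa4, a protein first counted with complex I and later assigned to complex IV.

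The promoters of these isoform pairs are shown first because the measurements turn on the pairs. RefSeq promoter windows (assembly GRCm38.p6, 250 bases before to 50 bases after the annotated gene start, 300 bases in all) were matched by symbol for 67 of the 80 genes. The windows of Cox6a2 and Ndufa4l2 were not analysed here. Each sequence is written 5′ to 3′ on the strand of its gene. Capitals mark the searched letters on either strand. CCGGAAG is the core bound by ETS factors such as GABP, a regulator of many respiratory genes. GCGCATG is part of the element of Nrf1, another regulator of respiratory genes. AAGATGG is part of the element of Yy1, a zinc finger factor found at many such promoters. AAGGTCA is part of the element of Esrra, a nuclear receptor that works with Ppargc1a. The letters TATAAA were added to the search after the windows had been seen. The first 4 of the sequences are 2 pairs of a restricted and a ubiquitous complex IV gene, and the last 2 are a ubiquitous complex IV gene and a complex V gene with many of the letters.
Cox8b (chr7:140900397-140900696, minus strand): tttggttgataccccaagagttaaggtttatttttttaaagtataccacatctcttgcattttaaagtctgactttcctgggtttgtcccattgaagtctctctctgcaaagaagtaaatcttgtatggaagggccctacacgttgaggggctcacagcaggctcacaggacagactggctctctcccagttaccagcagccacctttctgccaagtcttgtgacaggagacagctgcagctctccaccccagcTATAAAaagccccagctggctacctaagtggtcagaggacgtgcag
Cox8a (chr19:7217567-7217866, minus strand): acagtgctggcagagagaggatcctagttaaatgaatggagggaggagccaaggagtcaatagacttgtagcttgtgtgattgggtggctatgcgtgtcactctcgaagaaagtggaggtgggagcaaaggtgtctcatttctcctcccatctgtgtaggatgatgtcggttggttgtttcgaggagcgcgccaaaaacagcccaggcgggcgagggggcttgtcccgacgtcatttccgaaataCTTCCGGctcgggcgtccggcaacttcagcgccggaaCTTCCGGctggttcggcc
Cox7a1 (chr7:30183921-30184220, plus strand): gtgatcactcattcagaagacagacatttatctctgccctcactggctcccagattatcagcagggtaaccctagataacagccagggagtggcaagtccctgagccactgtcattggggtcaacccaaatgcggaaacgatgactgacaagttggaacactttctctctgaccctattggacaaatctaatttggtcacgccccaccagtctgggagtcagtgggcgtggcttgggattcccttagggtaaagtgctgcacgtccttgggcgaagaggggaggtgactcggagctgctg
Cox7a2 (chr9:79759804-79760103, minus strand): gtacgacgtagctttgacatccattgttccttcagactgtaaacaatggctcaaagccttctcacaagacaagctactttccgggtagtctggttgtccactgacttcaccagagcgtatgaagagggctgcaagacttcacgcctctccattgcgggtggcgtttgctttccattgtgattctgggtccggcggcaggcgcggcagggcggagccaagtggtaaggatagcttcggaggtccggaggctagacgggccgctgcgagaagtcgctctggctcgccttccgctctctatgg
Cox6a1 (chr5:115348909-115349208, minus strand): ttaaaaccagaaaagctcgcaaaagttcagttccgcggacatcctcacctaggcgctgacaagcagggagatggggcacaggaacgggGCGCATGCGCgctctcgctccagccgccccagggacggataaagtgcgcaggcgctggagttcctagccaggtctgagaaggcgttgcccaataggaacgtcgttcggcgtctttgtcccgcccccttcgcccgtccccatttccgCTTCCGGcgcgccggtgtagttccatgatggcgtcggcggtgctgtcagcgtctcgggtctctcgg
Atp5k (chr5:108434350-108434649, minus strand): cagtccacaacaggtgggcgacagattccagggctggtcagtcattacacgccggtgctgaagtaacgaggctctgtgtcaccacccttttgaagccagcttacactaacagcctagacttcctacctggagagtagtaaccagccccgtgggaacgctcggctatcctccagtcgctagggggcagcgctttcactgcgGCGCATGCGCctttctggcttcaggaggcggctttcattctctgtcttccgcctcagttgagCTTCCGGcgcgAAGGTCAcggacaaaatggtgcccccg

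Cox8b, the restricted form, held TATAAA 1 time and none of the other letters, whereas Cox8a held the ETS letters 2 times, both on the opposite strand. Neither Cox7a1 nor Cox7a2 held any of the searched letters in this window. Cox6a1 held the ETS letters 1 time and the Nrf1 letters 2 times, on both strands of an overlapping palindrome. Atp5k held the ETS letters 1 time, the Nrf1 letters 2 times in the same palindrome and the Esrra letters 1 time. Among the 67 member promoters, 15 (22.4%) held the ETS letters, against 9.12% of 27025 promoters of the same length. The Nrf1 letters were in 13 (19.4%, against 4.04%), the Yy1 letters in 10 (14.9%, against 6.48%), the Esrra letters in 8 (11.9%, against 4.66%) and TATAAA in 7 (10.4%, against 14.2%). At least 1 of the first 4 motifs was in 35 of the 67 windows, and at least 2 were in 9. Of the 4 tissue-restricted genes with a window (Cox6b2, Cox7a1, Cox7b2 and Cox8b), 0 held any of these 4 motifs, and Cox8b and Cox7b2 held TATAAA. The restricted windows had 2 to 10 CpG dinucleotides (median 8.5), the 63 ubiquitous ones 5 to 43 (median 19), and the median of all promoters was 7. These letter matches are descriptions and show no binding.

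Levels below are log2 of an array's processed signal relative to that array's 75th percentile, and a change is a difference of group means on that scale from a limma fit over all 24 arrays, called at an adjusted p of 0.05 over 29532 features. Between 67.0 and 77.0% of the probes on an array stood well above background, with no saturated spot. Spleen markers changed widely: all 9 macrophage markers were called higher and all 9 proliferation markers lower in each of the 6 comparisons of a dose with 0 cGy. The summed erythroid level (10 genes, linear units of the 75th percentile) was 441 to 558 in BALB.K at rest and 34.9 to 40.9 at 800 cGy, and 143 to 190 and 7.75 to 8.97 in B10.BR at rest and at 900 cGy. In whole spleen RNA, fewer cells of a type and less RNA per cell cannot be told apart. Markers of exocrine pancreas (12 genes) ranged from 1.46 to 1338 in summed level and differed by array within groups. Arrays with signal of the Y-linked gene Ddx3y were 1 of 3 in BALB.K at 0, 300 and 400 cGy and 3 of 3 in every other group. BALB.K 0 cGy replicate 2 stood apart for 5 members (Atp5d, Cox7a1, Ndufs5, Ndufs8 and Sdhc), each over 1 log2 unit below both other arrays of its group, and values without that array are given beside the results that rest on it. Slide largely followed group. Slide 1 held the B10.BR arrays at rest and at 300 cGy and 2 of those at 500 cGy, slide 2 held the other at 500 cGy, those at 900 cGy, the resting BALB.K arrays and 1 BALB.K array at 300 cGy, and slide 3 held the remaining BALB.K arrays. The comparisons with rest at 400 and 800 cGy in BALB.K and at 900 cGy in B10.BR thus lie between slides, as does that of the strains at rest. A fit with the slide as a block rests there on the groups that span a pair of slides. The comparisons with rest at 300 cGy in BALB.K and at 500 cGy in B10.BR lie partly between slides. So does the strain difference of the change at 300 cGy.

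Among called members, the largest mean changes over the 6 doses were those of the isoforms Cox8b, Cox6a2 and Ndufa4l2, and they went opposite ways. Cox8b and Ndufa4l2 rose and Cox6a2 fell at all 6 doses, while the values of the ubiquitous partners Cox8a, Cox6a1 and Ndufa4 lay between -0.44 and -0.02. In Cox8b the 3 BALB.K arrays at rest read -4.21, -4.23 and -4.65, those at 300 cGy -3.17, -3.68 and -2.67, those at 400 cGy -2.73, -2.71 and -3.00, and those at 800 cGy -2.21, -2.67 and -2.14. The B10.BR arrays read -3.65, -3.19 and -3.48 at rest, -1.79, -2.74 and -3.04 at 300 cGy, -1.39, -2.17 and -2.20 at 500 cGy, and -1.32, -1.70 and -2.39 at 900 cGy. Every irradiated array of a strain was above every resting array of that strain. The change of Cox8b was 1.19 (SE 0.33, adjusted p 0.0057), 1.55 (adjusted p 0.00057) and 2.02 (2.9e-05) over the BALB.K doses, the last being 4.06-fold. In B10.BR it was 0.91 (adjusted p 0.030), 1.52 (0.00069) and 1.63 (0.00029). The B10.BR change at 300 cGy lost its call under 8 alternative settings.

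Ndufa4l2 was at 0.17, 0.20 and 0.23 in BALB.K at rest, 1.57, 0.99 and 1.14 at 300 cGy, 1.25, 1.32 and 1.09 at 400 cGy, and 1.78, 1.95 and 1.76 at 800 cGy. In B10.BR it was at 0.58, 0.55 and 0.64 at rest, 1.99, 1.46 and 1.44 at 300 cGy, 2.10, 2.11 and 1.68 at 500 cGy, and 1.69, 2.08 and 1.61 at 900 cGy. The resting arrays were tightly grouped, and none overlapped with an irradiated array of the same strain. The changes were 1.03 (SE 0.17, adjusted p 4.9e-05), 1.02 (4.4e-05) and 1.63 (1.1e-07) in BALB.K, where the highest dose gave a 3.09-fold rise. In B10.BR they were 1.04 (adjusted p 5.9e-05), 1.37 (1.5e-06) and 1.2 (5.3e-06). Ndufa4l2 kept its call at all 6 doses under every alternative run, with changes no smaller than 0.87, 0.92 and 1.51 in BALB.K and 0.86, 1.30 and 1.06 in B10.BR.

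Cox6a2 fell in both strains. The BALB.K arrays read -0.88, -0.67 and -0.72 at rest, -1.83, -1.95 and -1.88 at 300 cGy, -1.68, -1.83 and -1.98 at 400 cGy, and -1.76, -1.83 and -1.81 at 800 cGy. The B10.BR arrays read 0.17, 0.03 and 0.22 at rest, -1.46, -1.99 and -1.75 at 300 cGy, -0.62, -2.06 and -2.07 at 500 cGy, and -2.62, -1.71 and -2.97 at 900 cGy. All irradiated arrays lay below the resting arrays of their strain. In BALB.K the level was about the same at the 3 doses, with changes of -1.13 (SE 0.31, adjusted p 0.0053), -1.08 (0.0064) and -1.04 (0.0067). In B10.BR the changes were -1.88 (adjusted p 7.1e-05), -1.72 (0.00011) and -2.57 (8.3e-07), the last leaving 0.168 of the resting level. The B10.BR calls held under every alternative run. The BALB.K calls were lost with the slide as a block (adjusted p 0.055, 0.16 and 0.16), at 300 cGy also within slide 2 (0.14) and at 800 cGy also with spike-in scaling (0.079).

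Cox7a1 rose at the 3 BALB.K doses and at 500 cGy in B10.BR. At rest the BALB.K arrays read -1.24, -2.53 and -0.94, and at 800 cGy -0.68, -0.51 and -0.50. The B10.BR arrays read -1.42, -1.25 and -1.26 at rest and -0.26, -0.57 and -0.70 at 500 cGy. The changes were 0.72 (SE 0.27, adjusted p 0.036), 0.83 (0.015) and 1.01 (0.0035) in BALB.K and 0.52 (0.14), 0.80 (0.019) and 0.63 (0.056) in B10.BR. Replicate 2 of the resting BALB.K arrays is the lowest value of the gene, and without it the changes were 0.24 (not called) at 300 cGy, 0.35 (not called) at 400 cGy and 0.53 (adjusted p 0.013) at 800 cGy. The partner Cox7a2 fell at 400 cGy by 0.75 and at 800 cGy by 0.40 in BALB.K, and at 900 cGy by 0.32 in B10.BR, where spike-in scaling gave 0.066.

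The testis form Cox6b2 was the isoform whose change differed between the strains. BALB.K arrays read 0.82, 1.39 and 1.09 at rest, 0.26, 0.29 and 0.36 at 300 cGy, 0.63, 0.67 and 0.60 at 400 cGy, and 1.03, 0.66 and 0.92 at 800 cGy. B10.BR arrays read 0.42, 0.29 and 0.21 at rest, 0.22, 0.38 and 0.20 at 300 cGy, 0.61, 0.91 and 0.75 at 500 cGy, and 0.81, 0.94 and 0.76 at 900 cGy. It fell in BALB.K at 300 cGy by 0.80 (SE 0.12, adjusted p 3.1e-05) and at 400 cGy by 0.47 (0.0038), and was at -0.23 (0.11) at 800 cGy. In B10.BR it was at -0.04 (0.85) at 300 cGy and rose by 0.45 (0.0050) at 500 cGy and 0.53 (0.0012) at 900 cGy. Between the lower and the highest dose of a strain it rose by 0.57 in each, from 300 to 800 cGy (adjusted p 0.0020) and from 300 to 900 cGy (0.0028).

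A difference between the genes of a pair on the same array is not moved by scaling each array with a single factor, whereas quantile normalization can move it. Relative to the resting mean of the strain, Cox8b minus Cox8a was 1.31 ± 0.55, 1.73 ± 0.23 and 2.21 ± 0.31 (SD, n = 3) over the BALB.K doses and 1.06 ± 0.50, 1.56 ± 0.40 and 1.74 ± 0.45 over the B10.BR doses. Ndufa4l2 minus Ndufa4 was 1.16 ± 0.32, 1.46 ± 0.10 and 1.97 ± 0.12, then 1.21 ± 0.22, 1.47 ± 0.20 and 1.46 ± 0.24. Cox7a1 minus Cox7a2 was 0.99 ± 0.30, 1.58 ± 0.19 and 1.41 ± 0.13, then 0.70 ± 0.27, 0.84 ± 0.21 and 0.95 ± 0.25. In these 3 pairs the restricted gene moved up against its partner at every dose with no overlap with the resting arrays, although the resting SD of the Cox7a1 pair in BALB.K was 0.88. Without BALB.K 0 cGy replicate 2 the BALB.K values of that pair were 0.49, 1.08 and 0.90. Cox6a2 minus Cox6a1 moved the other way, to -0.85 ± 0.22, -0.85 ± 0.22 and -0.88 ± 0.12 in BALB.K and -1.73 ± 0.19, -1.70 ± 0.71 and -2.47 ± 0.63 in B10.BR. After quantile normalization the 4 pairs had the same signs and no overlap with rest at any dose, with Cox8b minus Cox8a at 1.31, 1.47 and 1.91, then 0.77, 1.23 and 1.24, and Cox6a2 minus Cox6a1 at -1.38 at 800 cGy. For Cox6b2 minus Cox6b1, 3 of the 6 doses left the resting range: -0.53 ± 0.06 at 300 cGy in BALB.K, 0.47 ± 0.18 at 500 cGy and 0.73 ± 0.05 at 900 cGy in B10.BR.

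**Figure D1:**
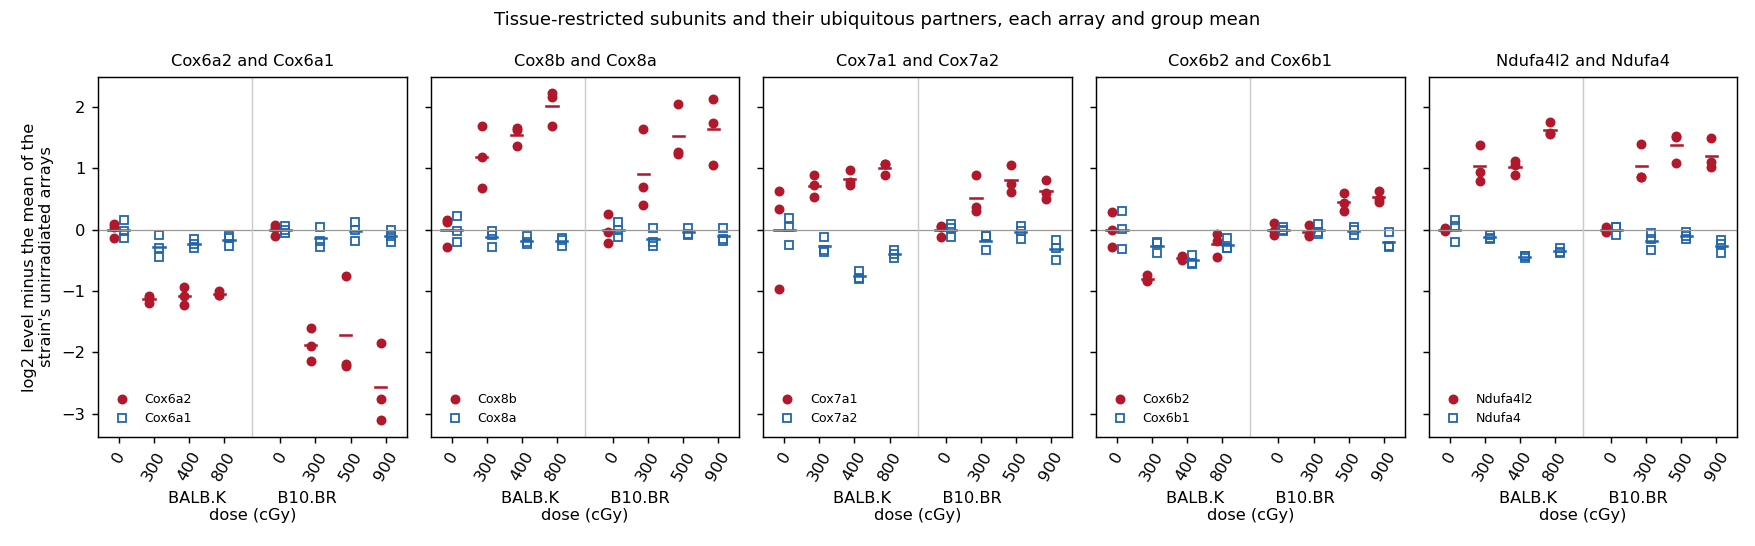
Each panel plots, for 1 pair of isoforms, the log2 level on each array minus the mean of the unirradiated arrays of its strain (y axis) against the dose in cGy, by strain (x axis), with filled circles for the restricted gene, open squares for its ubiquitous partner and bars at the means of 3 arrays. Cox8b and Ndufa4l2 lie above their unirradiated arrays at every dose (means up to 2.02 and 1.63), Cox6a2 lies below them at every dose (mean down to -2.57), and Cox6b2 lies below at 300 cGy in BALB.K and above at 500 and 900 cGy in B10.BR.

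Markers of cell types in which these isoforms are known were read beside them. Of all features, 20.7, 25.6 and 29.3% were called higher over the BALB.K doses and 18.7, 22.1 and 25.8% over the B10.BR doses. Brown and white adipocyte markers (7 tested) had 4, 6 and 6 called higher over the BALB.K doses and 3, 7 and 7 over the B10.BR doses, with 0 called lower. Their summed level was 9.23 to 15.5 in BALB.K at rest and 25.9 to 33.5, 29.2 to 54.3 and 23.5 to 76.2 at its doses. In B10.BR it was 15.1 to 20.0 at rest and 26.0 to 98.4, 60 to 79.8 and 54.0 to 204 at its doses. Of the defining brown fat gene Ucp1, the change was called in B10.BR at its 3 doses (1.63, 1.84 and 1.28) and in BALB.K at none (0.93, 0.79 and 0.29). These Ucp1 values lie near the floor. Its level was -8.34 to -4.52 over the 24 arrays, and -6.45, -7.74 and -8.34 in B10.BR at rest. The lowest level above background of an array was -7.39 to -5.87. Pericyte and smooth muscle markers (8 genes, a list added after the data were seen), cells for which Ndufa4l2 is also a known marker, had 7, 6, 8, 8, 8 and 8 called higher. Their summed level was 17.1 to 21.4 at rest and 45.6 to 48.0 at 800 cGy in BALB.K, and 30.0 to 32.8 at rest and 59.6 to 65.0 at 900 cGy in B10.BR. The part of these cells in the rises was not tested.

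Markers of striated muscle (12 genes), the tissue of Cox6a2, had 1, 1 and 4 called higher and 2, 2 and 0 lower over the BALB.K doses, and 2, 3 and 5 higher and 0, 1 and 0 lower over the B10.BR doses. Of all features, 20.7, 25.6 and 29.3% were called higher and 26.0, 26.0 and 29.1% lower in BALB.K. In B10.BR the shares were 18.7, 22.1 and 25.8% higher and 23.0, 26.7 and 28.4% lower. The muscle rises were near or below the background at 300 and 400 cGy in BALB.K and at 300 and 500 cGy in B10.BR. The muscle falls were below it at each dose. The summed level of the muscle markers was 1.37 to 3.26 in BALB.K at rest and 4.49 to 6.23 at 800 cGy, and 5.42 to 6.40 in B10.BR at rest and 4.79 to 18.8 at 900 cGy. The muscle creatine kinase Ckm lay between -7.36 and -2.10 over the 24 arrays, where the lowest level above background of an array was -7.39 to -5.87. The highest muscle sums were 21.6 on B10.BR 500 cGy replicate 1 and 18.8 on B10.BR 900 cGy replicate 2. Those are the arrays with the highest Cox6a2 of their groups, at -0.62 and -1.71. Plasmacytoid dendritic cell markers (8 genes, a list also added after the data were seen) had 1, 1 and 0 called higher and 2, 2 and 6 lower in BALB.K, and 0, 0 and 1 higher and 5, 7 and 7 lower in B10.BR. The BALB.K falls at 300 and 400 cGy were near the share of all features called lower (26.0% at each). Summed, these markers were at 192 to 208 at rest and 179 to 198, 171 to 184 and 151 to 157 at the BALB.K doses. The BALB.K sums at 300 cGy overlapped with rest. In B10.BR the markers summed to 320 to 388 at rest and 227 to 293, 209 to 234 and 194 to 216 at its doses. Their part in the fall of Cox6a2 was not tested.

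Over all 78 tested members, more genes were called lower than higher at every dose with the 75th percentile as the scale, a balance that other scalings turned at some doses, as given after the counts. In BALB.K 5 were higher and 29 lower at 300 cGy, 4 and 46 at 400 cGy, and 7 and 40 at 800 cGy. Of all features 46.8, 51.5 and 58.4% were called in these comparisons, with 26.0, 26.0 and 29.1% lower and 20.7, 25.6 and 29.3% higher. In B10.BR 3 were higher and 13 lower at 300 cGy, 6 and 12 at 500 cGy, and 5 and 32 at 900 cGy, where 41.8, 48.8 and 54.2% of all features were called, with 23.0, 26.7 and 28.4% lower and 18.7, 22.1 and 25.8% higher. The B10.BR counts at 300 and 500 cGy were therefore below the background share in both directions. The median change of the members was -0.19, -0.37 and -0.25 in BALB.K, beside -0.12, 0.01 and 0.08 for all features, and -0.11, -0.06 and -0.20 in B10.BR, beside -0.07, -0.07 and 0.00. Relative to the median of all features, the members were at -0.08, -0.38 and -0.32 in BALB.K and at -0.04, 0.01 and -0.21 in B10.BR.

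**Figure D2:**
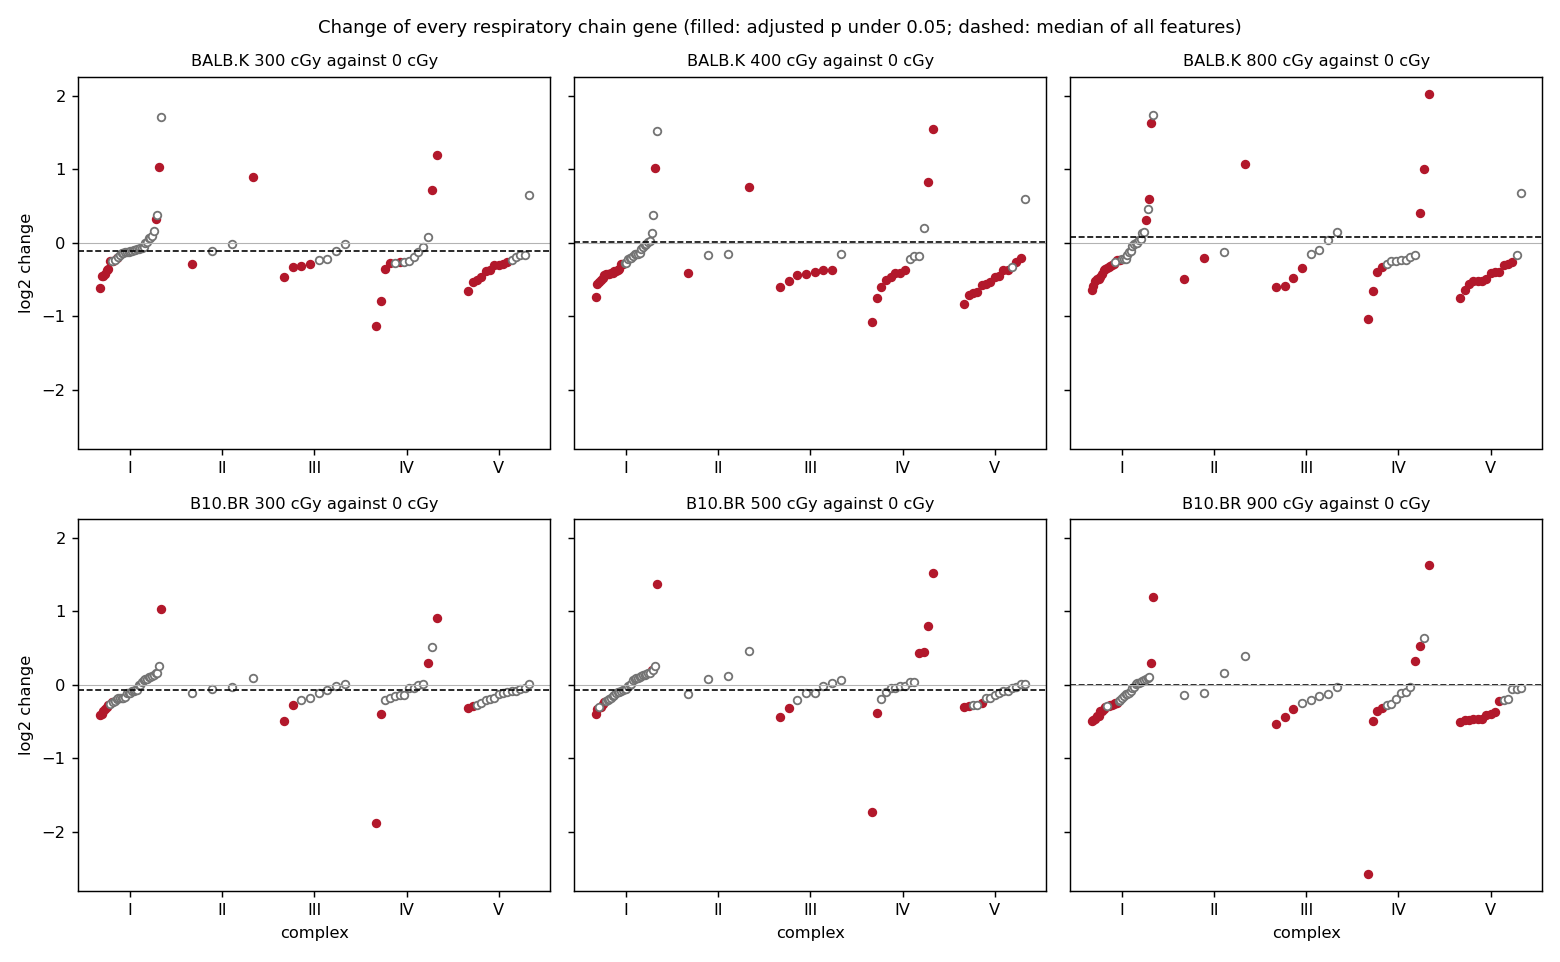
Log2 change against the unirradiated group (y axis) of each of the 78 tested members, ordered by size within each complex (x axis), in the 6 comparisons of a dose with 0 cGy, with called genes filled and a dashed line at the median of all features. The highest and lowest filled points include Cox8b (2.02 at 800 cGy) and Cox6a2 (-2.57 at 900 cGy), and the highest open points of complex I in BALB.K are Ndufs5.

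These counts depended on how arrays were scaled. The shares of all features given above are those of the 75th percentile. Shares under the other settings are not given here, so the counts that follow are not set against a background. With the array median in place of the 75th percentile, 6 members were higher and 8 lower at 300, 4 and 54 at 400 and 7 and 51 at 800 cGy in BALB.K, and 2 and 18, 6 and 11, and 3 and 42 in B10.BR. With quantile normalization the counts were 8 and 17, 8 and 31, and 11 and 25 in BALB.K, and 8 and 1, 18 and 4, and 16 and 8 in B10.BR. With the 10 spike-in probes as the scale they were 3 and 9, 4 and 10, and 13 and 0 in BALB.K, and 4 and 1, 8 and 1, and 10 and 1 in B10.BR. Spike-in scaling put the median of all features at -0.19, 0.08 and 0.43 in BALB.K and at 0.26, 0.25 and 0.39 in B10.BR. With the slide as a block the counts were 2 and 15, 2 and 26, and 5 and 23 in BALB.K, and 3 and 8 at 900 cGy in B10.BR. With the exocrine level as a covariate they were 1 and 2 at 300 and 3 and 7 at 900 cGy in B10.BR, the doses at which all 12 exocrine markers were called higher. Without BALB.K 0 cGy replicate 2, 4 and 11 were called at 300 cGy in BALB.K, and on the slide that holds its resting arrays and 1 array at 300 cGy, 1 and 0. The balance of calls turned with spike-in scaling at 800 cGy in BALB.K and at all 3 doses in B10.BR, and with quantile normalization at all 3 doses in B10.BR. Under quantile normalization the members' median relative to all features was -0.04, -0.20 and -0.18 in BALB.K and 0.07, 0.09 and -0.01 in B10.BR.

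**Figure D3:**
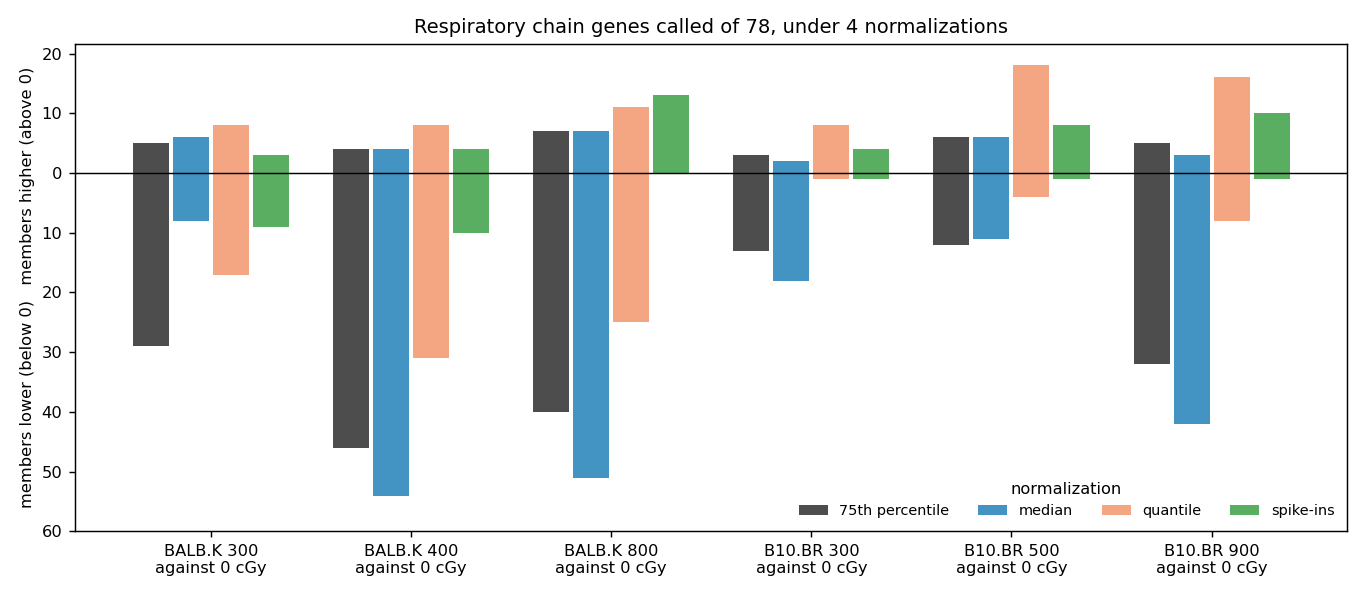
Number of the 78 members called higher (above 0) and lower (below 0) on the y axis, for each comparison of a dose with 0 cGy and each of 4 ways of scaling the arrays. At 800 cGy in BALB.K, 40 were called lower with the 75th percentile and 0 with the spike-in probes.

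Some members were called the same way under all 4 scalings, and they are named here for that reason, after their values were seen. Among those higher were Cox8b and Ndufa4l2 at all 6 doses, Sdhc at the 3 BALB.K doses, Cox7a1 at 400, 800 and 500 cGy, Cox5a at 800 and 500 cGy, Ndufa1 at 800 cGy, and Cox6b2 at 500 and 900 cGy. Lower in BALB.K at 300 cGy were Atp5b, Atp5g1, Atp5h, Cox6a2, Cox6b2, Ndufb9, Ndufv1 and Uqcrfs1. Lower at 400 cGy were Atp5a1, Atp5b, Atp5g1, Atp5k, Atp5o, Cox6a2, Cox7a2, Ndufb4, Ndufv1 and Uqcrfs1. At 800 cGy 0 members were lower under all 4, and in B10.BR Cox6a2 was the gene lower under all 4 at each dose. Cox5a, a ubiquitous matrix subunit of complex IV, went from 5.95, 5.96 and 6.14 at rest to 6.37, 6.47 and 6.43 at 800 cGy in BALB.K, and from 6.08, 5.95 and 6.08 to 6.48, 6.55 and 6.40 at 500 cGy in B10.BR. Its rises at these doses were 0.41 and 0.44, and it was called higher in 4 of the 6 comparisons with rest.

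Complex V, the ATP synthase, had lower calls and none higher. Of its 15 genes, 10, 13 and 13 fell over the BALB.K doses and 2, 3 and 10 over the B10.BR doses, with medians of -0.31, -0.46 and -0.41, then -0.12, -0.14 and -0.39. Of all features 26.0, 26.0 and 29.1% were called lower in BALB.K and 23.0, 26.7 and 28.4% in B10.BR. The complex V falls at 300 and 500 cGy in B10.BR were therefore below the background share. Relative to all features the complex V median was -0.19, -0.47 and -0.49 in BALB.K, and after quantile normalization -0.16, -0.31 and -0.20. In B10.BR it was -0.05, -0.07 and -0.39, and after quantile normalization 0.06, 0.07 and -0.05. Atp5b encodes the catalytic beta subunit of the F1 head. Its BALB.K arrays read 6.48, 6.87 and 6.40 at rest, 5.98, 5.94 and 5.87 at 300 cGy, 5.76, 5.76 and 5.71 at 400 cGy, and 6.05, 6.12 and 6.02 at 800 cGy. The B10.BR arrays read 6.22, 6.12 and 6.10 at rest, 6.18, 5.94 and 6.05 at 300 cGy, 6.11, 5.90 and 6.01 at 500 cGy, and 5.67, 5.89 and 5.71 at 900 cGy. In BALB.K every irradiated array lay below the resting ones, and in B10.BR those at 900 cGy did. The change was -0.65 (SE 0.10, adjusted p 4.3e-05), -0.84 (1.8e-06) and -0.52 (0.00028) in BALB.K, where the level at 400 cGy fell by 44.1%, and -0.09 (0.55), -0.14 (0.30) and -0.39 (0.0036) in B10.BR.

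Atp5f1, subunit b of the stalk that holds the F1 head, fell by 0.37, 0.57 and 0.75 in BALB.K and by 0.48 at 900 cGy in B10.BR. Its arrays read 4.31, 4.65 and 4.54 at rest and 3.78, 3.76 and 3.71 at 800 cGy in BALB.K, and 4.37, 4.23 and 4.37 at rest and 3.96, 3.89 and 3.70 at 900 cGy in B10.BR. Atp5g3 is 1 of the 3 genes for the c subunit of the rotor ring. It fell by 0.26, 0.37 and 0.41 in BALB.K, and its B10.BR values were -0.05, 0.01 and -0.05, which quantile normalization moved to a called 0.35 at 900 cGy. Atp5j, the coupling factor F6 of the stalk, fell by 0.38 and 0.27 at 400 and 800 cGy in BALB.K, and under spike-in scaling the value at 800 cGy was 0.090. Atp5d, the delta subunit of the central stalk, was called at no dose: its BALB.K differences of 0.65, 0.59 and 0.68 rest on replicate 2 at rest, which read 0.84 where the other resting arrays read 2.78 and 3.18.

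On the same array, the mean of the 15 complex V genes minus the mean of the other members was, relative to rest, -0.19 ± 0.03, -0.23 ± 0.03 and -0.28 ± 0.02 (SD, n = 3) in BALB.K and -0.07 ± 0.01, -0.15 ± 0.07 and -0.19 ± 0.03 in B10.BR. A single scaling factor per array cancels in this difference. After quantile normalization it was -0.15, -0.18 and -0.22 in BALB.K and -0.02 (overlapping with rest), -0.09 and -0.11 in B10.BR. The same difference was 0.14 ± 0.01, 0.12 ± 0.01 and 0.11 ± 0.03, then 0.06 ± 0.01, 0.04 ± 0.02 and 0.07 ± 0.02 for complex I. It was 0.25 ± 0.12, 0.26 ± 0.00 and 0.21 ± 0.03, then 0.08 ± 0.09, 0.17 ± 0.01 and 0.25 ± 0.08 for complex II. It was -0.14 ± 0.04, -0.19 ± 0.04 and -0.13 ± 0.02, then -0.08 ± 0.01, -0.12 ± 0.02 and -0.10 ± 0.04 for complex III, and -0.03, 0.07 and 0.12, then -0.01, 0.10 and 0.06 for complex IV. The means of complexes V and III thus lay below, and those of complexes I and II above, the other members at all 6 doses. Complex II at 300 cGy in B10.BR, where 1 array read -0.03, overlapped with rest, and the other values of these 4 complexes did not. Without BALB.K 0 cGy replicate 2 the BALB.K values were 0.11, 0.10 and 0.09 for complex I and 0.21, 0.21 and 0.17 for complex II. They were -0.10, -0.15 and -0.09 for complex III, -0.01, 0.08 and 0.14 for complex IV, and -0.18, -0.22 and -0.27 for complex V. After quantile normalization the signs of the means were the same, but complex I was at 0.07 at 800 cGy in BALB.K and at 0.01 at 500 cGy in B10.BR, and both then overlapped with rest. The number of complex V genes below the median of all members was 11, 10 and 13 of 15 in BALB.K and 9, 11 and 11 in B10.BR. For complex III it was 6, 6 and 4 of 8, then 4, 5 and 5. For complex I it was 12, 14 and 15 of 37, then 18, 18 and 17, about an even split in B10.BR. For complex II it was 1, 1 and 1 of 4, then 1, 1 and 0. The highest complex I change at each B10.BR dose was that of Ndufa4l2, up to 1.37 at 500 cGy. The highest complex II change at each BALB.K dose was that of Sdhc, up to 1.07 at 800 cGy. The means without these genes were not computed.

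**Figure D4:**
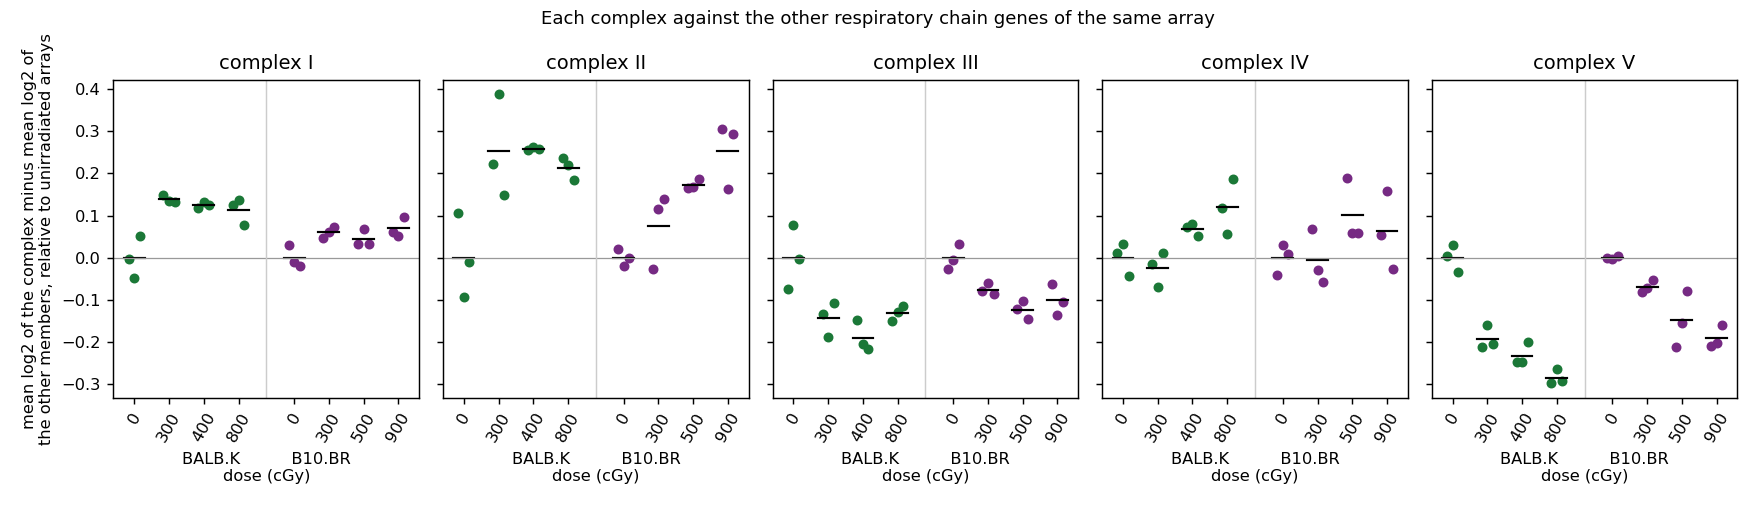
For each complex (panels), the mean log2 level of its tested genes minus that of the other members on the same array (y axis, relative to the unirradiated mean of the strain) is plotted against the dose in cGy, by strain (x axis), with a point per array and a bar at the mean of 3 arrays. Complex V lies below 0 at every dose, down to a mean of -0.28 at 800 cGy in BALB.K and -0.19 at 900 cGy in B10.BR.

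Of the 37 complex I genes, 2, 1 and 3 rose and 9, 17 and 17 fell over the BALB.K doses, and 1, 2 and 2 rose and 7, 5 and 15 fell over the B10.BR doses. The falls were 24.3, 45.9 and 45.9% of them in BALB.K, beside 26.0, 26.0 and 29.1% of all features, so that the share at 300 cGy was below the background. In B10.BR the falls at 300 and 500 cGy were below the background of 23.0 and 26.7% as well, and those at 900 cGy were 40.5% beside 28.4%. Ndufv1 is the core subunit that binds NADH and flavin. Its BALB.K arrays read 5.0, 5.44 and 5.17 at rest, 4.54, 4.63 and 4.59 at 300 cGy, 4.41, 4.47 and 4.53 at 400 cGy, and 4.57, 4.66 and 4.63 at 800 cGy. The irradiated BALB.K arrays all lay below the resting ones, with falls of 0.62, 0.74 and 0.58 (SE 0.10, adjusted p 3.5e-05, 3.6e-06 and 3.7e-05). In B10.BR the changes were -0.27 (0.030), -0.19 (0.11) and -0.27 (0.025), and spike-in scaling turned the first and last to 0.063 and 0.12. Ndufs1, the large iron-sulfur core subunit, fell at all 6 doses, by 0.35, 0.41 and 0.65 in BALB.K and by 0.32, 0.39 and 0.48 in B10.BR. Its B10.BR arrays read 3.86, 3.67 and 3.83 at rest and 3.33, 3.28 and 3.30 at 900 cGy. Under spike-in scaling its B10.BR value at 300 cGy was 0.013.

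Among the rises counted in complex I were those of Ndufa4l2 at all 6 doses, Ndufa1 at 300 and 800 cGy in BALB.K, and Ndufv3 at 500 and Ndufa8 at 900 cGy in B10.BR (0.20 and 0.29). Ndufa1, a membrane-arm subunit needed for assembly, rose by 0.33 at 300 cGy and 0.31 at 800 cGy in BALB.K, from 4.69, 4.86 and 4.94 at rest to 5.12, 5.14 and 5.16 at 800 cGy. In B10.BR its changes of 0.06, 0.13 and 0.11 were not called. Ndufa10 fell in BALB.K by 0.45, 0.53 and 0.34 and was at 0.25, 0.08 and -0.03 in B10.BR, none called. The BALB.K call at 800 cGy held in 8 of 21 alternatives, with values from -0.60 to 0.02. Without BALB.K 0 cGy replicate 2 the values were -0.34 (adjusted p 0.069) at 300 cGy and -0.22 (0.20) at 800 cGy, neither called, and -0.42 (0.022) at 400 cGy. Its BALB.K arrays read 1.85, 2.21 and 1.87 at rest and 1.34, 1.67 and 1.55 at 300 cGy, and the B10.BR arrays read 1.38, 1.14 and 0.97 at rest and 1.31, 1.33 and 1.61 at 300 cGy. Ndufs5 read 4.44, -0.33 and 4.86 in BALB.K at rest and 4.43 to 5.30 on the arrays of all other groups. Its differences of 1.71, 1.52 and 1.74 were not called and rest on replicate 2.

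The 8 complex III genes had a median below 0 at each dose: -0.27, -0.41 and -0.25 in BALB.K, where 4, 7 and 4 fell, and -0.14, -0.11 and -0.22 in B10.BR, where 2, 2 and 3 fell. None was called higher. In B10.BR 23.0, 26.7 and 28.4% of all features were called lower, so that the complex III falls at 300 and 500 cGy stood near the background. Relative to all features the B10.BR medians were -0.07, -0.04 and -0.23, and quantile normalization turned them to 0.04, 0.03 and 0.04. Uqcrc2, a core protein of the matrix side, fell at all 6 doses, by 0.33, 0.44 and 0.61 in BALB.K and by 0.27, 0.32 and 0.44 in B10.BR, where spike-in scaling gave 0.068 at 300 cGy. The B10.BR arrays read 4.39, 4.32 and 4.38 at rest, 4.14, 4.05 and 4.09 at 300 cGy, 4.07, 4.05 and 4.01 at 500 cGy, and 3.91, 3.92 and 3.94 at 900 cGy. Those groups did not overlap with rest. Uqcrh, the hinge protein that helps cytochrome c to dock, was at -0.23 (not called), then fell by 0.40 and 0.48 in BALB.K, and fell by 0.49, 0.44 and 0.53 in B10.BR. Uqcrc1, the partner of Uqcrc2, fell by 0.30 and 0.37 at 300 and 400 cGy in BALB.K and was at 0.04 at 800 cGy. Uqcr11, a small subunit, fell by 0.32 and 0.43 at the same doses. In B10.BR the changes of Uqcrc1 were -0.07, -0.11 and -0.03 and those of Uqcr11 0.02, 0.06 and -0.13, none called.

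In complex IV, 14 genes were tested, and 2, 2 and 3 rose and 5, 8 and 4 fell in BALB.K, while 2, 4 and 3 rose and 2, 2 and 4 fell in B10.BR. Of all features 26.0, 26.0 and 29.1% were called lower in BALB.K and 23.0, 26.7 and 28.4% in B10.BR. The falls at 800 cGy and at each B10.BR dose were therefore near or below the background. The rises were below the share of all features called higher at each dose but 500 cGy, where that share was 22.1%. The isoforms above made up most of the rises. Among ubiquitous subunits, Cox7b fell by 0.27, 0.60 and 0.65 in BALB.K and by 0.49 at 900 cGy in B10.BR. Cox6b1, which faces the intermembrane space, fell by 0.50 at 400 cGy in BALB.K and was called at no other dose. Cox6a1 fell by 0.28 at 300 cGy in BALB.K. Cox8a was called at no dose, with values from -0.19 to -0.04. The quantile-normalized values of Cox6a1 and Cox8a had the opposite sign at several doses. Ndufa4 fell by 0.44 and 0.35 at 400 and 800 cGy in BALB.K and by 0.26 at 900 cGy in B10.BR, and the latter was 0.12 under spike-in scaling.

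Complex II had 4 genes, 1 of which rose. Sdhc, an anchor subunit in the membrane, read 3.33, 2.20 and 3.30 in BALB.K at rest, 3.86, 3.96 and 3.70 at 300 cGy, 3.70, 3.66 and 3.73 at 400 cGy, and 4.0, 4.03 and 4.03 at 800 cGy. In B10.BR it read 3.74, 3.68 and 3.76 at rest, 3.58, 3.87 and 3.66 at 300 cGy, 4.31, 4.26 and 4.0 at 500 cGy, and 4.29, 4.14 and 3.93 at 900 cGy. All irradiated BALB.K arrays were above the resting ones. The change was 0.89 (SE 0.20, adjusted p 0.0013), 0.75 and 1.07 in BALB.K, and -0.02 (0.95), 0.47 (0.065) and 0.40 (0.11) in B10.BR. Without replicate 2 at rest the BALB.K changes were 0.52 (adjusted p 0.0014), 0.38 (0.011) and 0.70 (4.9e-05). Sdhd, the other anchor, fell by 0.29, 0.41 and 0.50 in BALB.K and was at -0.05, 0.08 and -0.14 in B10.BR. Sdha, the flavoprotein that oxidises succinate, fell by 0.20 at 800 cGy in BALB.K, with 0.15 under spike-in scaling. Sdhb, the iron-sulfur subunit, was called at no dose, with values from -0.17 to 0.16.

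Between doses of a strain, 5 members rose and 8 fell from 300 to 800 cGy in BALB.K (36.5% of all features were called), with a member median of -0.05 beside 0.13 for all features. Among the rises were Cox6b2 (0.57), Ndufa4l2 (0.59, SE 0.17, adjusted p 0.011), Uqcrc1 (0.34) and Cox5a (0.33). Among the falls were Cox7b (0.39), Atp5f1 (0.38), Ndufs1 (0.29) and Uqcrc2 (0.27). From 300 to 900 cGy in B10.BR, 1 rose and 4 fell (22.4% of all features were called), with a median of -0.07 beside 0.05. These were Cox6b2 (0.57) and the falls of Atp5k (0.34), Atp5g1 (0.30), Atp5b (0.30) and Cox7b (0.29). The array median as the scale gave 0 higher and 46 lower for the BALB.K step, and the spike-in probes gave 22 and 0, so that its overall direction depended on scaling. The genes in the last lists that fall outside the naming rule were named after their values were seen.

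At rest, 20 members were higher and 12 lower in B10.BR than in BALB.K, where 53.4% of all features were called (22.6% higher, 30.7% lower). The member median was 0.10 beside -0.10 for all features. With other scalings the split was 54 and 3 (array median), 14 and 20 (quantile) and 1 and 58 (spike-in probes, which put the median of all features at -0.80), so the overall direction was not settled. The resting arrays of B10.BR were all on slide 1 and those of BALB.K all on slide 2, and with the slide as a block 2 members were higher and 3 lower. Cox7c, a small membrane subunit of complex IV, kept its call under every one of the 20 alternatives, with values from 0.50 to 1.69. It read 2.62, 3.33 and 2.91 in BALB.K and 4.29, 4.29 and 4.42 in B10.BR, a difference of 1.38 (SE 0.15, adjusted p 8.5e-07), or 2.60-fold. Cox7c has 3 probes, and these values are of its probe of highest mean. The values of its other probes are not given here. Atp5g1, Cox6b2 and Ndufa10 were lower in B10.BR under all 4 scalings, by 0.69, 0.80 and 0.81. Cox8b was higher in B10.BR by 0.93 (adjusted p 0.023) and Cox6a2 by 0.90 (0.020). The Cox8b call held in 13 of 20 alternatives (0.23 to 1.24) and the Cox6a2 call in 14 of 20 (0.16 to 1.21), and with the slide as a block they were 0.50 (adjusted p 0.595) and 0.16 (0.86). The differences of 2.0 for Ndufs5 and 0.96 for Atp5d became 0.34 and 0.25 without BALB.K 0 cGy replicate 2.

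At 300 cGy, the dose given to both strains, the change differed between strains for 4 members. That is a smaller share than the 10.9% of all features called (6.03% higher and 4.86% lower). The B10.BR arrays at 0 and 300 cGy were all on slide 1. The BALB.K arrays at rest were on slide 2, and 2 of those at 300 cGy were on slide 3. With the slide as a block, 2 members were called higher and 0 lower. The B10.BR change minus the BALB.K change was 0.76 (SE 0.17, adjusted p 0.0089) for Cox6b2, 0.71 (SE 0.19, 0.025) for Ndufa10, 0.57 (SE 0.15, 0.019) for Atp5b and -0.92 (SE 0.29, 0.047) for Sdhc. For Cox6b2, Ndufa10 and Atp5b the gene fell in BALB.K and had no call in B10.BR, and for Sdhc it rose in BALB.K and had no call in B10.BR. In these 4 genes the B10.BR resting mean also lay nearer to the irradiated BALB.K mean than the BALB.K resting mean did, and the BALB.K resting arrays enter both differences. The median over the members was 0.07, beside 0.03 for all features. The Cox6b2 difference held in 25 of 26 alternatives and was lost with a fit on the compared arrays alone (adjusted p 0.068). The Atp5b difference held in 21 of 26. The Ndufa10 difference held in 19 of 26 and was 0.59 (adjusted p 0.070) without BALB.K 0 cGy replicate 2, while the Sdhc difference was lost in 16 of 26 and was -0.54 (adjusted p 0.040) without BALB.K 0 cGy replicate 2.

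**Figure D5:**
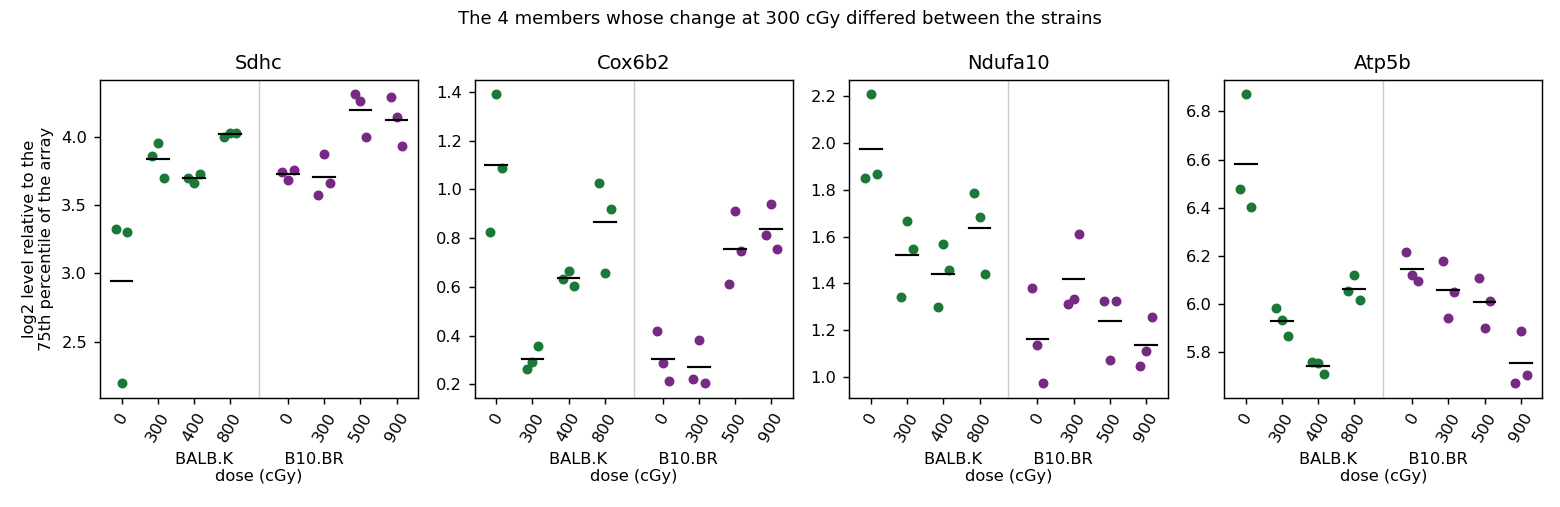
Log2 level relative to the 75th percentile of the array (y axis, with its own range in each panel) of Sdhc, Cox6b2, Ndufa10 and Atp5b on each array against the dose in cGy, by strain (x axis), with a bar at the mean of 3 arrays. Between 0 and 300 cGy the BALB.K arrays do not overlap, being higher at 300 cGy for Sdhc and lower for the other genes, whereas the B10.BR arrays of the same doses overlap.

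Other genes of the same machinery were read from lists. Where a list's median is given, it is relative to the median of all features, which a single factor per array does not move and quantile normalization does. The counts are to be read against the shares of all features called higher and lower, given above for each dose. Of the 12 genes encoded in mitochondrial DNA, 0 rose and 4, 6 and 10 fell over the BALB.K doses and 2, 7 and 6 over the B10.BR doses, with relative medians of -0.27, -0.44 and -0.89, then -0.10 (0.06 after quantile normalization), -0.33 and -0.39. ND4L, a complex I subunit, fell by 1.13 at 800 cGy and averaged -0.69 over the 6 comparisons. Of 12 chain genes whose names the rule does not cover, 0, 0, 0, 0, 1 and 2 rose and 6, 8, 8, 5, 5 and 7 fell. The relative medians of this list were -0.29, -0.65 and -0.56 in BALB.K. In B10.BR they were -0.08, -0.08 and -0.37, and after quantile normalization 0.01, -0.01 and -0.16. The inhibitor of ATP synthase reversal, Atpif1, fell at all 6 doses (mean -0.97), and Cox4i2, the lung isoform of Cox4, was called higher at 500 and 900 cGy in B10.BR (0.48 and 0.77). Of 46 assembly factors, 4, 2, 5, 4, 6 and 5 rose and 17, 21, 19, 11, 15 and 14 fell. Relative medians were -0.0014, -0.27 and -0.21 in BALB.K and 0.01, 0.04 and -0.14 in B10.BR, where the falls at 300 and 900 cGy stood near the background. Lrpprc, which stabilises mitochondrial mRNA, fell at all 6 (mean -0.69), and Ttc19, a complex III factor, rose at 5 (mean 0.42).

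Regulators of mitochondrial biogenesis (16 genes) had 0 called higher at any dose and 10, 12, 13, 12, 14 and 14 lower, with relative medians of -0.23, -0.59, -0.76, -0.49, -0.50 and -0.71. Ppargc1a, the coactivator of respiratory gene expression, fell by 1.12, 1.35 and 2.53 in BALB.K and by 0.71, 1.03 and 0.92 in B10.BR. Mitochondrial ribosomal proteins (79 of 81 tested) had 1, 1, 3, 1, 4 and 3 higher and 37, 52, 50, 29, 30 and 51 lower. Mrps22 fell at all 6 doses (mean -0.80), and Mrps6 rose at 4 (mean 0.32). Mitochondrial import genes (25) had 0 higher and 12, 18, 21, 13, 13 and 19 lower, led by Timm8a1 (mean -1.33). In the tricarboxylic acid cycle (17 genes), 1, 1, 2, 1, 1 and 1 rose and 5, 8, 9, 5, 5 and 7 fell. There the NAD-linked Idh3a fell at 5 of 6 doses (mean -0.89), and the NADP-linked Idh2 rose at all 6 (mean 0.56).

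Glycolysis (21 genes) was the list with more higher than lower calls at each dose: 9, 7, 9, 5, 8 and 7 rose and 4, 4, 3, 2, 2 and 3 fell, with relative medians of 0.36, 0.04, 0.14, 0.11, 0.19 and 0.11. The rises were 42.9, 33.3, 42.9, 23.8, 38.1 and 33.3% of the list, beside 20.7, 25.6, 29.3, 18.7, 22.1 and 25.8% of all features, so that those at 300 cGy in B10.BR stood near the background. Hk3, a hexokinase of myeloid cells, rose at all 6 doses (mean 1.95), beside the macrophage markers described above, whose part was not tested, and Aldoc, an aldolase, fell at all 6 (mean -1.35). Of 9 antioxidant and uncoupling genes, 1, 1, 1, 2, 2 and 3 rose and 6, 5, 3, 3, 3 and 3 fell, with Txnrd2, the mitochondrial thioredoxin reductase, lower at all 6 (mean -1.28). Of 7 adenine nucleotide and phosphate carriers, 2 rose at each dose and 1, 5, 2, 0, 0 and 1 fell. Slc25a31, the testis form of the ADP/ATP carrier, rose at all 6 (mean 1.02), and Slc25a5, a ubiquitous form, fell at the 3 BALB.K doses (mean over all 6 -0.22).

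Cytosolic ribosomal proteins (84 of 86 tested), another large set of housekeeping subunits, served to show where the members differ. Of them 2, 2, 2, 1, 2 and 1 rose and 58, 61, 74, 69, 77 and 77 fell, with relative medians of -0.19, -0.35 and -0.63, then -0.32, -0.43 and -0.66. Quantile normalization brought these medians to -0.04, -0.10 and -0.20, then -0.05, -0.12 and -0.20, so that the size of the fall depended on scaling. Rps7 fell at all 6 doses (mean -0.83), and Rps27l, a gene known as a p53 target, rose at all 6 (mean 0.71). On the same array, the mean of the 78 members minus the mean of the 84 ribosomal protein genes was, relative to rest, 0.13 ± 0.08, 0.09 ± 0.03 and 0.37 ± 0.01 (SD, n = 3) in BALB.K and 0.27 ± 0.04, 0.44 ± 0.02 and 0.46 ± 0.01 in B10.BR. The resting arrays had SDs of 0.07 and 0.09, and the values at 300 and 400 cGy in BALB.K overlapped with rest. A single factor per array does not move this difference, but after quantile normalization it was 0.02, 0.00 and 0.15 in BALB.K and 0.14, 0.25 and 0.27 in B10.BR, with the same overlaps.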

How the data were processed

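RNA of whole mouse splenocytes was hybridised to 24 one-colour Agilent arrays (3 slides of 8), 3 arrays for each of 8 groups. The scanner output is a spot intensity (arbitrary units) which Agilent Feature Extraction 10.5.1.1 had corrected for background and detrended, per the file headers. A deposited matrix of log2 values, centred by the authors, has column medians of -0.12 to 0.18. Its baseline is unknown for B10.BR, so it served as an alternative inside each strain. The sources used here do not give its normalization, and its direction was checked against the scanner values.

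Outlier spots were left out, replicate spots averaged, and log2 processed signal was set relative to each array's 75th percentile. Probes well above background on all 3 arrays of at least 1 group were kept (42319 of 55681), and each gene was represented by its probe of highest mean, giving 29532 features. Of the 80 members, 23 had more than 1 probe, and none had probes called in opposite directions. Probes took RefSeq names through their accession (26413), symbol (3859) or synonym (735), or else kept the printed name (24674). R 4.3.3, with the package limma (version 3.58.1) for the fit of group means to the 24 arrays and the package data.table (version 1.17.8) for reading, was used for two-sided tests, with Benjamini-Hochberg adjustment over all features in each of 10 comparisons at 0.05. The procedure was tested on simulated data. The number of arrays limits the precision.

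The members, the gene lists and the naming rule were chosen with earlier results of these data known. Genes were named by the following rule: in each complex the 2 highest and 2 lowest mean changes over the 6 doses among called genes, the 5 largest called strain differences, complex II and the isoforms with their partners always, and the most raised and most lowered called gene of each other list. The pericyte and plasmacytoid dendritic cell lists, TATAAA, every probe as a feature, and the alternatives for within-array differences and list medians were added after the data had been seen. Alternatives changed the normalization, background correction, dim-probe filter, outlier spots, probe choice, moderation, arrays in the fit, slide, replicate number, exocrine level and Ddx3y signal, or left out 1 array. Replicate numbers do not pair the samples: correlations of same-numbered arrays were -0.34 to 0.30. Probe sequences are not shown, and the values of 1 member are not reported here.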

Additional observations from a re-analysis of the deposited data

Results flagged for a closer look

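A difference between the strains in the change from 0 to 300 cGy, tested as an interaction in the limma fit over 24 arrays (3 arrays a group), was found for 4 members. The B10.BR change minus the BALB.K change was 0.76 for Cox6b2 (adjusted p 0.0089), 0.71 for Ndufa10 (0.025), 0.57 for Atp5b (0.019) and -0.92 for Sdhc (0.047), where 10.9% of all features were called. These 4 are a smaller share of the 78 tested members. The check for an outlying value within a group needs at least 4 arrays and was not made. An array that stood apart, BALB.K 0 cGy replicate 2, was left out instead, and without it the difference was 0.59 (adjusted p 0.070) for Ndufa10 and -0.54 (0.040) for Sdhc.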

How the results depend on the processing

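Counts are of the 78 members, called higher and lower in that order. The shares of all features called under these settings are not given beside them. Quantile normalization gave 8 and 1 (9 in all) at 300, 18 and 4 (22) at 500 and 16 and 8 (24) at 900 cGy in B10.BR, 1 and 1 (2) for 900 against 300 cGy, and 14 and 20 (34) between strains at rest. The array median gave 6 and 8 (14) at 300 cGy in BALB.K, 0 and 46 for 800 against 300 cGy, 54 and 3 (57) between strains, and 1 and 5 (6) for the strain difference at 300 cGy. Spike-in scaling gave 3 and 9 (12), 4 and 10 (14) and 13 and 0 in BALB.K, 4 and 1 (5), 8 and 1 (9) and 10 and 1 (11) in B10.BR, 22 and 0 for 800 against 300 cGy, 0 for 900 against 300 cGy by limma (2 at an unadjusted p under 0.05), 1 and 58 (59) between strains and 1 and 0 for the difference. The fit on the compared arrays alone gave 2 and 4 (6) and 2 and 27 (29) at 300 and 400 cGy in BALB.K, 1 and 6 (7) at 300 cGy in B10.BR, 4 and 2 (6) and 1 and 0 (1) between doses, 10 and 4 (14) between strains and 0 for the difference by limma (8 at an unadjusted p under 0.05). The slide as a block gave 2 and 15 (17), 2 and 26 (28) and 5 and 23 (28) in BALB.K, 3 and 8 (11) at 900 cGy in B10.BR, 0 for 900 against 300 cGy by limma (4 at an unadjusted p under 0.05), 2 and 3 (5) between strains and 2 and 0 for the difference. Within slide 2, 300 against 0 cGy in BALB.K gave 1 and 0; within slide 1, B10.BR gave 1 and 11 at 300 and 6 and 7 at 500 cGy; within slide 3, 800 against 300 cGy gave 5 and 8. The exocrine level as a covariate gave 1 and 2 (3) at 300, 3 and 7 (10) at 900 and 1 and 1 (2) for 900 against 300 cGy in B10.BR, and 12 and 13 (25) between strains. For 800 against 300 cGy, Ddx3y as a covariate gave 3 and 1 (4), the mean of probes 6 and 5 (11) and the deposited matrix 6 and 1 (7), which gave 4 and 18 (22) at 300 cGy in BALB.K. For 900 against 300 cGy, no filter gave 1 and 0, and every probe as its own feature (chosen after seeing the data) 1 and 2 (3).

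Leaving out 1 array at a time gave totals of 15 to 50, 40 to 59 and 40 to 62 at the BALB.K doses, 9 to 19, 12 to 16 and 27 to 35 at the B10.BR doses, 3 to 13 and 1 to 6 between doses, 23 to 33 between strains and 1 to 11 for the strain difference. At 300 cGy in BALB.K, 4 and 11 were called without BALB.K 0 cGy replicate 2 and 4 and 17 without 300 cGy replicate 1. At 300 cGy in B10.BR, 2 and 7 were called without 0 cGy replicate 3 and 3 and 7 without 300 cGy replicate 3. Between strains, 14 and 17 were called without BALB.K 0 cGy replicate 1, and for the strain difference 10 and 1. That difference gave 2 and 0 without BALB.K 300 cGy replicate 1, 1 and 0 without B10.BR 0 cGy replicate 3 and 2 and 0 without B10.BR 300 cGy replicate 3. For 800 against 300 cGy, 2 and 1 were called without 300 cGy replicate 2, 4 and 4 without 800 cGy replicate 2, and 5 and 3 without 800 cGy replicate 1 or 3. For 900 against 300 cGy, 2 and 0 were called without 300 cGy replicate 1 or 900 cGy replicate 3, 1 and 0 without 900 cGy replicate 1, 1 and 1 without 300 cGy replicate 2, and 1 and 2 without 300 cGy replicate 3. The replicate block gave 5 and 25, 4 and 47 and 7 and 36 in BALB.K, 3 and 13, 5 and 11 and 5 and 31 in B10.BR, 6 and 7 and 1 and 3 between doses, 20 and 12 between strains and 3 and 0 for the difference.

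Of the named genes' values, 5923 kept their direction and their side of the threshold, 441 lost a call, 143 gained one and 33 took the opposite sign. Quantile normalization turned Cox6a1 to 0.25 at 800 cGy in BALB.K and to 0.20, 0.40 and 0.36 at the B10.BR doses, Cox8a to 0.23 and 0.28 at 500 and 900 cGy, and Atp5g3 to 0.35 at 900 cGy. The array median turned Atp5g3 between strains to 0.31. Spike-in scaling turned Sdha (0.15), Atp5j (0.090), Ndufa10 (0.020) and Ndufa4 (0.010) at 800 cGy. In B10.BR it turned Uqcrc2 (0.068), Ndufv1 (0.063) and Ndufs1 (0.013) at 300 cGy, Uqcrc2 (0.0042) at 500 cGy, and Ndufv1 (0.12), Cox7a2 (0.066) and Ndufa4 (0.12) at 900 cGy. For 800 against 300 cGy it turned Uqcrc2 (0.16), Cox7b (0.047), Ndufs1 (0.14) and Atp5f1 (0.057). Between strains it turned Uqcrh (-0.11), Uqcrc1 (-0.57), Ndufa1 (-0.28), Sdha (-0.53), Atp5j (-0.67), Sdhb (-0.67), Cox6b1 (-0.52), Cox7a2 (-0.40), Cox8a (-0.65) and Ndufa4 (-0.54). The scalings differ by construction in the level taken as unchanged; the cause of the other shifts was not tested. All 78 members were above background on all 24 arrays, and the part of dim signal in these shifts was not tested.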
